A study of Mus musculus with 27 samples.

Results

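Smarcc1 and Smarcc2 are the paralogous mouse genes for the scaffold subunits BAF155 and BAF170 of the SWI/SNF chromatin remodelling complex, and they are described here as 2 of 55487 genes in a count table of the embryonic day 14 (E14) optic stalk (OS). They were found in the table by their Ensembl identifiers, ENSMUSG00000032481 for Smarcc1 and ENSMUSG00000025369 for Smarcc2, without using any measured value, and both passed the filter on low counts that kept 16330 genes. The OS is the tube of neuroepithelium that joins the optic cup to the brain. Laser-capture microdissection (LCM) took a dorsal piece, a ventral piece and a piece rich in retinal ganglion cell (RGC) axons from each embryo, and RNA from each piece was sequenced as 1 library (Geo-seq), which gave 27 libraries from 4 control and 5 Smarcc1-DCT-cKO embryos. The mutants carried loxP-flanked Baf155 (Smarcc1) alleles, Dct-Cre, which is driven by the promoter of the pigment-cell gene Dct, and the Z/EG reporter, whereas the controls were littermates without Dct-Cre, all on a C57Bl6/J background. The loxP and reporter alleles of each control embryo are not given in the sources used here.

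SWI/SNF complexes use the energy of ATP to move or evict nucleosomes, and so change which regulatory DNA can be reached by transcription factors. SMARCC1 and SMARCC2 pair through a coiled region, as homodimers or heterodimers, and form the base on which the other subunits and the ATPase (SMARCA4 or SMARCA2) assemble. In the developing nervous system SMARCC1 is known from progenitor forms of the complex and SMARCC2 from forms that also occur in differentiating cells.

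In mm10 Smarcc1 lies on the plus strand of chromosome 9, from 110117708 to 110240178, and Smarcc2 on the plus strand of chromosome 10, from 128459248 to 128490482. GENCODE gives Smarcc1 7832 exonic bases in 9 transcripts and Smarcc2 5552 exonic bases in 6 transcripts. Their longest coding sequences, of 1104 and 1213 codons without the stop, were 67.3% identical over 3216 aligned bases. The stretch in which they are most alike, 90 coding bases inside exon 25 of each gene, is printed because a read that fits both genes would blur the comparison of the paralogues. It lies at chr9:110213536-110213625 in Smarcc1 and at chr10:128485587-128485676 in Smarcc2 (mm10, plus strand, 5′ to 3′), and capitals mark the 80 bases that are identical in both.
Smarcc1: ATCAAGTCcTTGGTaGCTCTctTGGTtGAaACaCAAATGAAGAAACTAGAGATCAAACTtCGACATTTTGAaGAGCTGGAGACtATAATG
Smarcc2: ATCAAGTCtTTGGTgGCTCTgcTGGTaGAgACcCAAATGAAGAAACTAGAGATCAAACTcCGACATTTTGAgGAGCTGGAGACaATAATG
The longest run shared without a mismatch was CAAATGAAGAAACTAGAGATCAAACT, 26 bases within this stretch, and no pair among the 54 pairs of annotated transcripts shared a longer one. The sequenced reads were several times longer than this run, so a read of full length cannot match annotated transcripts of both genes without a mismatch. Dhx30, an RNA helicase gene on the opposite strand, overlaps 123 (1.57%) of the exonic bases of Smarcc1, while Smarcc2 shares 0 with another gene. The strand setting of the counting is not given in the sources used here, so reads from these 123 bases cannot be assigned to either gene.

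Libraries held 10.9 to 33.98 M counts (M, 1e6), and 9225 to 16810 genes had at least 1 count. Levels are given as CPM (counts per 1e6 counts of the library), and levels of the paralogues are compared with each other only after division by the exonic length in kilobases (CPM per kb). The lowest count of either gene in any library was 32, above the 3 counts that a reading of 0 could hide, which equal 0.0883 to 0.275 CPM. The cDNA was amplified by PCR without molecular identifiers, so such limits cover counting error only. Labels divide the libraries into batch A (control 1 and mutants 1 to 3) and batch B (controls 2 to 4 and mutants 4 and 5). Axon libraries held more mitochondrial counts, at 7.49% to 15.4% of the total against 3.72% to 7.63% in the other pieces. The 6 marker genes of optic stalk and astrocyte progenitors were detected in every group, except that Vax2 was at 0 in all axon mutants. Neuronal markers summed to 805 to 2133 CPM in the axon libraries. Pou4f2, a transcription factor gene of RGC nuclei, was at 0 there, and equally in all dorsal libraries and all ventral controls. The neuronal markers Elavl3 and Elavl4 were at 0 in every axon mutant.

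Smarcc1, the targeted gene, was lower in the mutants in the ventral OS and in the RGC axons, while the dorsal groups overlapped. The counts take in every exon of the gene, so intact and recombined transcripts are counted together. In dorsal controls 1 to 4 Smarcc1 stood at 116 CPM, 75.9 CPM, 289 CPM and 97.2 CPM, and in dorsal mutants 1 to 5 at 94.9 CPM, 107 CPM, 2.26 CPM, 44.3 CPM and 24.5 CPM. Dorsal mutants 1 and 2 lay within the range of the controls, and dorsal mutant 3 was the lowest dorsal library by far. In ventral controls 1 to 4 the level was 198 CPM, 90.8 CPM, 75.7 CPM and 155 CPM, and in ventral mutants 1 to 5 it was 40.2 CPM, 64.4 CPM, 23.3 CPM, 24.7 CPM and 14.7 CPM. In axon controls 1 to 4 it was 61.9 CPM, 50.1 CPM, 242 CPM and 143 CPM, and in axon mutants 1 to 5 it was 10.1 CPM, 29.0 CPM, 5.64 CPM, 44.9 CPM and 1.86 CPM. Every ventral mutant lay below every ventral control, a pattern found in 0.706% of the genes tested there, and the axon libraries were separated in the same way, as were 1.04% of the genes tested in the axons. A lower count in a captured piece can come from fewer cells that express a gene or from less RNA per cell, and these cannot be told apart here.

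**Figure D1:**
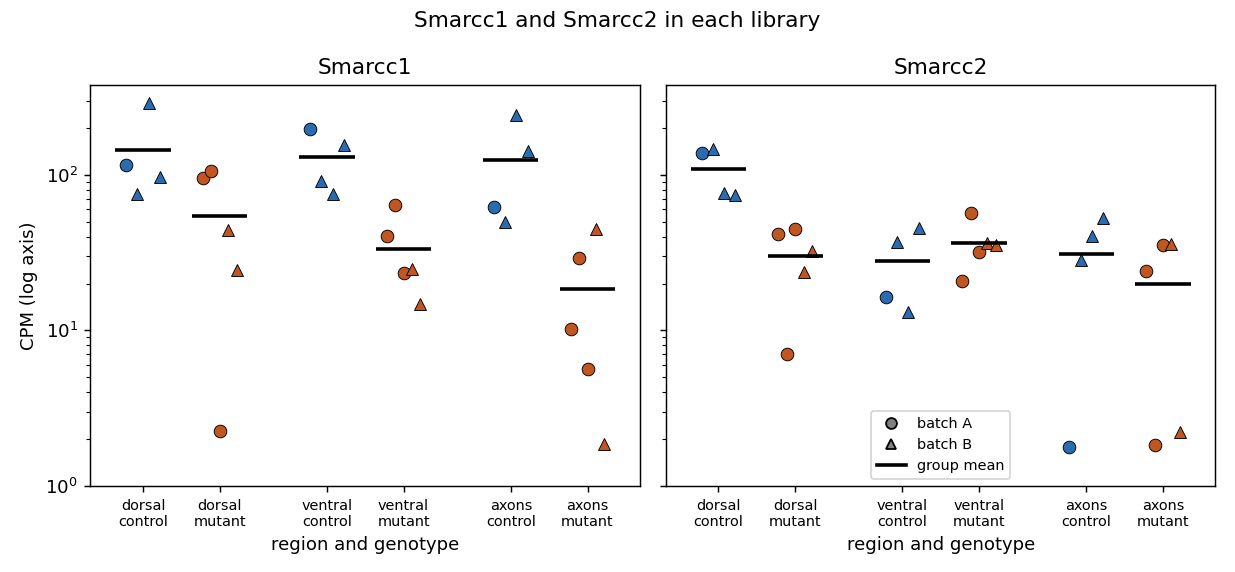
Levels of Smarcc1 (left) and Smarcc2 (right) in the 27 libraries, in CPM on a log axis, by region and genotype (blue, control; orange, mutant). Each point is 1 library, circles are batch A, triangles are batch B, and bars are group means; Smarcc1 mutants lie below all controls in the ventral and axon groups, and Smarcc2 mutants lie below all controls in the dorsal group.

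Mean Smarcc1 was 144 ± 97.9 CPM in dorsal controls (SD, n = 4) and 54.5 ± 44.9 CPM in dorsal mutants (SD, n = 5), and the two-sided exact permutation test on log2(CPM + 1) gave p = 0.103. The ventral means were 130 ± 56.9 CPM (SD, n = 4) and 33.5 ± 19.6 CPM (SD, n = 5), a 3.98-fold difference on the log2(CPM + 1) scale (two-sided exact permutation test, p = 0.0159). The axon means were 124 ± 88.7 CPM (SD, n = 4) and 18.3 ± 18.2 CPM (SD, n = 5), an 8.31-fold difference on that scale (two-sided exact permutation test, p = 0.0159). With labels exchanged only inside batches the exact permutation p was 0.1 in the dorsal OS and 0.025, the smallest this form can give, in the ventral OS and in the axons. After Benjamini-Hochberg adjustment over the 12 genotype tests of this kind (Smarcc1, Smarcc2 and their log ratio, each in 3 regions and in the embryo means), the ventral and axon exact permutation p-values were 0.0381 each. Within batch A the ventral difference was -2.30 and within batch B -2.36 on the log2(CPM + 1) scale, and the axon differences were -2.27 and -3.40.

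Across all genes of a region, edgeR's quasi-likelihood test called neither Smarcc1 nor Smarcc2 (a call needed an adjusted p, by Benjamini-Hochberg, under 0.05 together with a log2 fold change beyond 0.58 in size), and it called 0.0124% of the dorsal, 0% of the ventral and 0% of the axon genes. The edgeR log2 fold change of Smarcc1 was -2.37 ± 0.53 (SE) in the ventral OS, with an unadjusted p of 0.000781, rank 2 of the 16139 genes tested, and an adjusted p of 0.999. It was -1.66 ± 0.99 (SE) in the dorsal OS, with an adjusted p of 0.953 from edgeR. It was -2.46 ± 1.23 (SE) in the axons, with an adjusted p of 0.880 from edgeR. With 1 library left out in turn the axon value ran from -1.93 without mutant 5 to -4.17 without mutant 4, and the dorsal value from -1.06 without control 3 to -2.16 without control 1. The median log2 fold change over all genes was -0.04 in the dorsal OS, -0.08 in the ventral OS and -0.29 in the axons. At an unadjusted p under 0.05, edgeR counted 1 of the 2 genes in the dorsal OS (Smarcc2, lower), 1 in the ventral OS (Smarcc1, lower) and 0 in the axons, where 2.68%, 1.91% and 2.68% of all genes were lower at that p. DESeq2 called Smarcc1 in the ventral OS, with an adjusted p of 1.77e-05, and called 2.12% of all ventral genes, and it called neither gene in the dorsal OS or the axons. DESeq2 called 3.3% of all dorsal and 8.23% of all axon genes. With limma voom neither gene was called in any region, where it called 0.254% of the dorsal, 0.0372% of the ventral and 0.3% of the axon genes.

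Averaged over the 3 pieces of an embryo on the log2 scale, Smarcc1 was lower in all 5 mutants than in all 4 controls, a separation seen in 1.39% of the 16330 genes. The geometric mean of CPM + 1 was 113, 71.2, 176 and 130.1 in controls 1 to 4. In mutants 1 to 5 it was 35.3, 59.6, 8.07, 37.7 and 10.5. Mutants 3 and 5 were thus far below the other mutants, and mutant 2 came nearest to the controls. The difference of the embryo means was -2.33 on the log2(CPM + 1) scale (two-sided exact permutation p = 0.0159, 0.025 within batches and 0.0381 adjusted over the 12 tests). Without control 1, 2, 3 or 4 in turn the exact permutation p was 0.0536 each time, where 5 mutants against 3 controls remain. The pieces of 1 mutant could differ widely, since the highest piece of mutant 1 exceeded its lowest 8.61-fold, and that of mutant 5 8.89-fold, on the CPM + 1 scale.

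Smarcc2, whose locus is not targeted, was lower in the mutants in the dorsal OS, and its groups overlapped in the other pieces. It stood at 138 CPM, 146 CPM, 76.2 CPM and 74.6 CPM in dorsal controls 1 to 4. In dorsal mutants 1 to 5 it stood at 41.6 CPM, 7.09 CPM, 45.2 CPM, 23.7 CPM and 32.5 CPM. Every dorsal mutant was below every dorsal control, as for 1.61% of the genes tested in the dorsal OS, and dorsal mutant 2 was the lowest. In ventral controls 1 to 4 the level was 16.3 CPM, 36.9 CPM, 13.2 CPM and 45.6 CPM, and in ventral mutants 1 to 5 it was 20.6 CPM, 57.2 CPM, 31.8 CPM, 36.3 CPM and 35.6 CPM. In axon controls 1 to 4 it was 1.78 CPM, 28.4 CPM, 40.7 CPM and 53.0 CPM, and in axon mutants 1 to 5 it was 24.3 CPM, 1.83 CPM, 35.2 CPM, 36.2 CPM and 2.22 CPM. Axon control 1 and axon mutants 2 and 5 had little Smarcc2, and the other axon libraries of both genotypes lay together.

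The dorsal means of Smarcc2 were 109 ± 38.6 CPM (controls, SD, n = 4) and 30.0 ± 15.3 CPM (mutants, SD, n = 5), a 3.94-fold difference on the log2(CPM + 1) scale. The exact permutation p was 0.00794 (two-sided), the smallest that 4 against 5 libraries can give, and 0.025 within batches, and its adjusted value over the 12 tests was 0.0381. The difference was -2.47 within batch A and -1.72 within batch B on the log2(CPM + 1) scale. Over all genes it was not called, with an edgeR log2 fold change of -1.92 ± 0.71 (SE), an unadjusted p of 0.0190 and an adjusted p of 0.918; DESeq2 gave an adjusted p of 0.0620. The ventral means were 28.0 ± 15.8 CPM (controls, SD, n = 4) and 36.3 ± 13.2 CPM (mutants, SD, n = 5), and the two-sided exact permutation test gave p = 0.310. The axon means were 31.0 ± 21.9 CPM (SD, n = 4) and 19.9 ± 17.0 CPM (SD, n = 5), and the two-sided exact permutation test gave p = 0.619. Over the embryo means the difference of Smarcc2 was -0.74 on the log2(CPM + 1) scale (two-sided exact permutation test, p = 0.183). The edgeR log2 fold change of Smarcc2 in the axons was 0.11 ± 2.64 (SE), an error too wide to give a direction, and in the ventral OS it was 0.53 ± 1.01 (SE). On the log2(CPM + 1) scale the batches went opposite ways in the axons. The axon difference was 2.30 within batch A, whose only control had 1.78 CPM, and -1.89 within batch B. The embryo means differed by 0.28 within batch A and -1.09 within batch B.

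Markers of other cells differed between the same dorsal libraries, and their part in the Smarcc2 difference was not tested. The 10 mesenchyme markers, such as the collagen genes Col1a1 and Col3a1, all had a lower mean in the dorsal mutants, and their summed level was 1159 to 10185 CPM in the controls and 55.6 to 373 CPM in the mutants. Of the 6 genes of optic stalk and astrocyte progenitors, among them Pax2, 5 had a lower mean in the dorsal mutants, and their sum was 647 to 1007 CPM in the controls and 289 to 539.8 CPM in the mutants. All 9 pigment cell markers had a higher mean in the dorsal mutants, with summed levels of 43.5 to 5584 CPM in the controls and 4256 to 14377 CPM in the mutants. All 10 proliferation markers had a higher mean there too, with sums of 1475 to 3077 CPM in the controls and 3066 to 4176 CPM in the mutants. Of the 5 endothelial markers 4 had a lower mean in the dorsal mutants, with sums of 119.7 to 339 CPM in the controls and 43.1 to 206 CPM in the mutants. All 6 erythroid markers had a lower mean there, with sums of 728 to 24343 CPM (median 2522) in the controls and 176 to 7249 CPM (median 2995) in the mutants. Only the mesenchyme and the optic stalk and astrocyte progenitor sums did not overlap between the genotypes. None of the defining markers of these 6 lists was at 0 throughout a dorsal group. Of the 9 neuronal markers 6 had a lower and 2 a higher mean in the dorsal mutants. Of the 5 retinal progenitor markers 1 was lower and 4 were higher, and the sums of both lists overlapped. Over the 27 libraries the mean log2 level of a marker list had a Pearson r of -0.04 to 0.40 with Smarcc2, the highest for the endothelial list, and of -0.25 to 0.28 with Smarcc1, as a description of libraries that share embryos. Smarcc2 had an r of 0.47 with the number of genes detected over the 27 libraries, and Smarcc1 one of 0.28. Dct itself, the gene whose promoter drives the Cre, was at 222 to 1175 CPM in the dorsal mutants and at 1.95 to 304 CPM in the dorsal controls. In the ventral OS it was at 4.35 to 46.2 CPM in the controls and 9.40 to 80.8 CPM in the mutants, and in the axons at 2.29 to 259.6 CPM and 1.29 to 19.9 CPM, so those ranges overlapped.

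The same marker lists were read in the ventral OS and the axons, where Smarcc1 was lower in the mutants, and their part in that difference was not tested. In the ventral mutants all 10 mesenchyme markers had a lower mean, with sums of 55.4 to 1305 CPM in the controls and 53.9 to 181 CPM in the mutants, and Twist1 and Foxc1 were at 0 in every ventral mutant. All 6 erythroid markers had a lower mean there, with sums of 272 to 5255 CPM in the controls and 2.27 to 1201 CPM in the mutants, while 7 of the 9 pigment cell markers and 8 of the 10 proliferation markers had a higher one. In the axon mutants all 6 genes of optic stalk and astrocyte progenitors had a lower mean, with sums of 973 to 3463 CPM in the controls and 918 to 1680.2 CPM in the mutants, and Vax2 was at 0 in every axon mutant. All 5 endothelial and all 6 erythroid markers had a higher mean in the axon mutants, with endothelial sums of 2.13 to 152 CPM in the controls and 0.0584 to 333 CPM in the mutants, and erythroid sums of 2527 to 8964 CPM and 609 to 32950 CPM. The summed ranges of all these lists overlapped between the genotypes in both regions. The axon libraries had 12143 ± 1797 genes detected (controls, SD, n = 4) and 10146 ± 796 (mutants, SD, n = 5), and the ventral libraries 14294 ± 2075 (controls, SD, n = 4) and 14095 ± 1049 (mutants, SD, n = 5).

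Within controls Smarcc2 was highest in the dorsal OS. In all 4 control embryos the dorsal piece exceeded both the ventral piece, as for 4.76% of the genes tested, and the axon piece, as for 8.69%. Every dorsal control library also exceeded every ventral control library, as for 1.32% of the genes, and every axon control library, as for 2.91%. Marker sums differed between these control pieces too, and their part in this order was not tested. Endothelial sums were 119.7 to 339 CPM dorsally, 19.1 to 55.1 CPM ventrally and 2.13 to 152 CPM in the axons. The optic stalk and astrocyte progenitor sums were 647 to 1007 CPM, 1281 to 1664 CPM and 973 to 3463 CPM in the same order. Mean dorsal minus ventral Smarcc2 was 2.03 ± 0.98 on the log2(CPM + 1) scale (controls, SD, n = 4), and -0.42 ± 1.48 (mutants, SD, n = 5), where 2 of 5 embryos were higher dorsally. The genotypes differed in it by -2.44, for which the exact permutation p over embryos (two-sided) was 0.0317 and 0.05 within batches, and 0.179 after adjustment over the 9 tests of this family. It passed 0.05 without control 4 (exact permutation p 0.0357) or mutant 1 (0.0286), and missed it without any of the other 7 embryos in turn (0.0536 to 0.0714, the highest without control 1). In edgeR, with the embryo as a block, the dorsal against ventral log2 fold change of Smarcc2 was 2.07 ± 0.75 (SE) in controls, with an unadjusted p of 0.0292 and an adjusted p of 1.0, where 0% of all genes were called. DESeq2 called it, with an adjusted p of 0.0286, and called 3.95% of all genes. The edgeR test of the difference between the dorsal and the ventral genotype effect gave -2.82 ± 1.65 (SE), with an adjusted p of 1.0 and 0.00612% of all genes called.

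**Figure D2:**
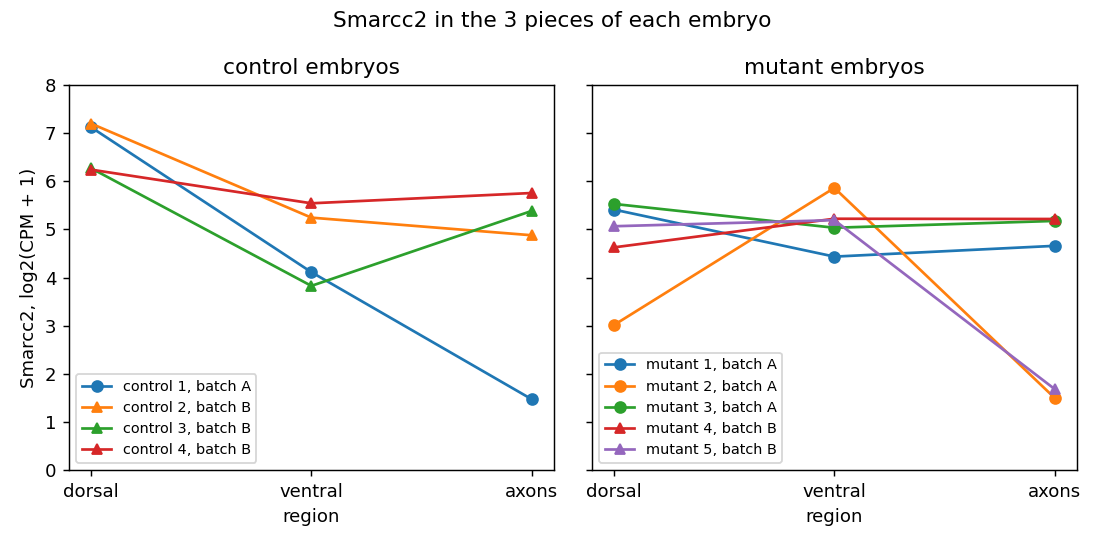
Smarcc2 in the 3 pieces of each embryo, as log2(CPM + 1), for the 4 control embryos (left) and the 5 mutant embryos (right); a line joins the pieces of 1 embryo, circles are batch A and triangles batch B. All control lines fall from dorsal to ventral, whereas 2 of the 5 mutant lines do.

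Smarcc1 gave no such order among the control pieces. Dorsal minus ventral Smarcc1 was 0.06 ± 1.26 on the log2(CPM + 1) scale (controls, SD, n = 4), with 1 of 4 embryos higher dorsally, and 0.11 ± 1.69 in mutants (SD, n = 5), with 4 of 5 higher dorsally. Dorsal minus axon Smarcc1 was 0.30 ± 0.62 (controls, SD, n = 4) and 1.41 ± 1.88 (mutants, SD, n = 5), and the exact permutation p of the genotype difference was 0.286 (two-sided). For ventral minus axon Smarcc1 the exact permutation p was 0.254 (two-sided). The edgeR differences of the genotype effect of Smarcc1 between regions were between 0.43 ± 1.12 (SE) and 1.46 ± 1.13 (SE), with adjusted p-values from 0.989 to 1.0, and those of Smarcc2 had adjusted p-values of 1.0. The test called 0.0122% of all genes for dorsal minus axons and 0% for ventral minus axons. In the regional edgeR fits neither gene was called in either genotype. There, dorsal against axon Smarcc2 had a log2 fold change of 1.98 ± 1.30 (SE) in controls and of 1.02 ± 1.67 (SE) in mutants, and dorsal against axon Smarcc1 one of 0.10 ± 0.45 (SE) in controls and of 1.39 ± 1.70 (SE) in mutants. Calls over all genes in these fits were 0.0126% for dorsal against axons and 0% for ventral against axons in controls, and 0.0371%, 0.266% and 0.259% for dorsal against ventral, dorsal against axons and ventral against axons in mutants.

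Ordered by their mean, the Smarcc1 levels were 144 CPM in dorsal controls, 130 CPM in ventral controls, 124 CPM in axon controls, 54.5 CPM in dorsal mutants, 33.5 CPM in ventral mutants and 18.3 CPM in axon mutants. All neighbours in this order overlapped in their ranges. For Smarcc2 the order was 109 CPM in dorsal controls, 36.3 CPM in ventral mutants, 31.0 CPM in axon controls, 30.0 CPM in dorsal mutants, 28.0 CPM in ventral controls and 19.9 CPM in axon mutants. Dorsal controls were the one group whose range did not reach that of its neighbour, and the 5 others overlapped one another in turn. Spread within a group was large for both genes. The coefficient of variation (CV) of Smarcc1 ran from 43.8% in ventral controls to 99.2% in axon mutants, and that of Smarcc2 from 35.5% in dorsal controls to 85.3% in axon mutants. Among the genes whose mean in the group lay within 2-fold of the member's, between 8.81% and 27.6% had a lower CV than Smarcc2, depending on the group, and for Smarcc1 the share ran from 19.6% to 78.2%.

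The paralogues were next compared with each other in each library, per kb of exon. The order and the shares rest on this choice of length, 7832 exonic bases for Smarcc1 and 5552 for Smarcc2, whereas the coding lengths were 3312 and 3639 bases. In CPM without division by length, Smarcc1 was instead above Smarcc2 in dorsal control 4 (97.2 and 74.6 CPM), ventral mutant 2 (64.4 and 57.2 CPM) and axon mutant 4 (44.9 and 36.2 CPM). In controls Smarcc1 exceeded Smarcc2 in all ventral and axon libraries, and Smarcc2 exceeded Smarcc1 in dorsal controls 1, 2 and 4. In the mutants Smarcc2 exceeded Smarcc1 in 10 of 15 libraries, of which 2 were dorsal, 4 ventral and 4 axon libraries, against 3 of 12 in the controls. Smarcc2 made up 62.8%, 73.0%, 27.1% and 52.0% of the sum of both in dorsal controls 1 to 4, and 38.2%, 8.58%, 96.6%, 43.1% and 65.2% in dorsal mutants 1 to 5. Dorsal mutants 2 and 3 formed the extremes of all 27 libraries but for axon control 1 and axon mutant 2, with Smarcc2 nearly absent beside Smarcc1 in the one and Smarcc1 nearly absent beside Smarcc2 in the other. In the ventral OS the share was 10.4%, 36.4%, 19.7% and 29.4% in controls 1 to 4 and 42.0%, 55.6%, 65.8%, 67.4% and 77.3% in mutants 1 to 5, so that every mutant was above every control. In the axons it was 3.90%, 44.4%, 19.2% and 34.4% in controls 1 to 4 and 77.2%, 8.18%, 89.8%, 53.2% and 62.7% in mutants 1 to 5, and mutant 2 alone lay within the range of the controls.

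**Figure D3:**
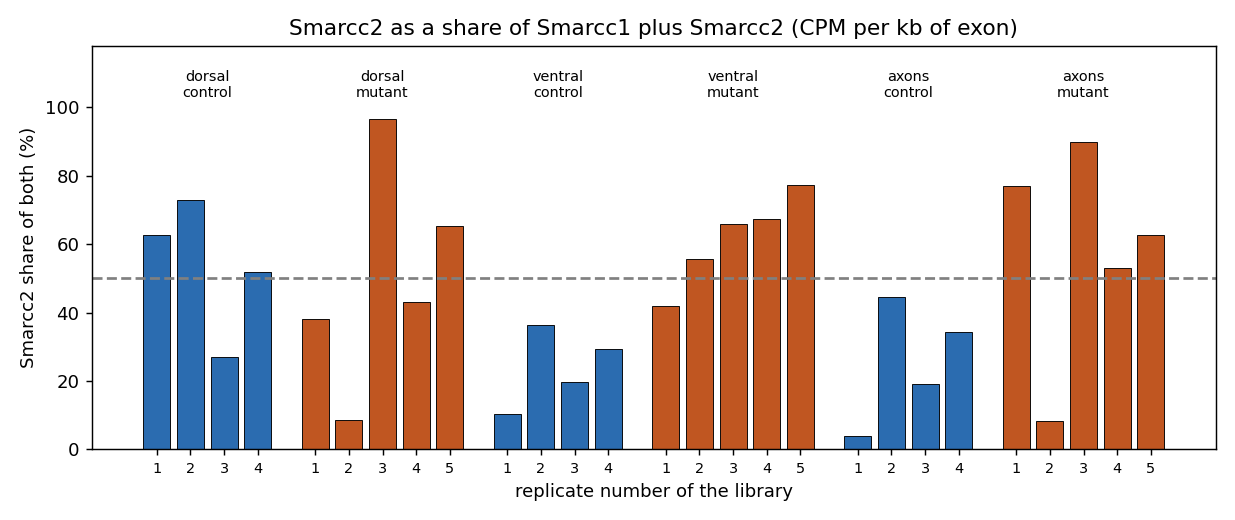
Smarcc2 as a share (%) of Smarcc1 plus Smarcc2, both in CPM per kb of exon, in each of the 27 libraries; blue bars are controls, orange bars mutants, the number under a bar is the replicate, and the dashed line marks equal levels. The ventral mutants (42.0% to 77.3%) lie above the ventral controls (10.4% to 36.4%), and dorsal mutants span 8.58% to 96.6%.

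The log2 ratio of Smarcc2 over Smarcc1 (CPM + 1) differed between the genotypes in the ventral OS, at -2.24 ± 0.98 (controls, SD, n = 4) and 0.22 ± 0.81 (mutants, SD, n = 5), a 5.51-fold difference. Its exact permutation p was 0.0159 (two-sided; 0.025 within batches; 0.0381 adjusted over the 12 tests). On the log2(CPM + 1) scale the mutant minus control difference was -1.99 for Smarcc1, which raises the ratio, and 0.47 for Smarcc2, which raises it too. In the axons the log2 ratio was -2.31 ± 1.63 (controls, SD, n = 4) and 0.02 ± 2.18 (mutants, SD, n = 5), and the two-sided exact permutation test gave p = 0.127. With 1 axon library left out in turn the exact permutation p ran from 0.0286, without mutant 2, to 0.268, and it was under 0.05 in 1 of the 9 cases. In the dorsal OS, where the means of both genes were lower in the mutants, it was -0.27 ± 1.22 (controls, SD, n = 4) and -0.31 ± 2.75 (mutants, SD, n = 5), and the two-sided exact permutation test gave p = 0.992. The summed level of both genes was 38.0 ± 10.2 CPM per kb in dorsal controls (SD, n = 4), from 25.9 to 50.7, and 12.4 ± 4.79 in dorsal mutants (SD, n = 5), from 8.43 to 19.6. In the ventral OS the sum was 21.6 ± 7.89 CPM per kb (controls, SD, n = 4) and 10.8 ± 4.34 (mutants, SD, n = 5), and in the axons 21.4 ± 14.1 (SD, n = 4) and 5.93 ± 4.27 (SD, n = 5), with overlapping ranges in both.

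Whether libraries with less Smarcc1 held more Smarcc2 was examined inside each region, after the mean of each genotype was removed. The Pearson r of the log2(CPM + 1) deviations was -0.56 in the dorsal OS (n = 9, exact permutation p 0.240, two-sided), 0.20 in the ventral OS (n = 9, exact permutation p 0.601) and 0.33 in the axons (n = 9, exact permutation p 0.410). Spearman's rho was -0.52 (exact permutation p 0.215), 0.22 (0.612) and 0.30 (0.470), and the adjusted p over these 6 values was 0.612 for each. Leaving out the 2 libraries farthest from the median of Smarcc1 gave an r of -0.38, 0.57 and 0.30. No relation passed the test in any region, and 9 libraries leave wide room for one. Over all 27 libraries, which share embryos, r was 0.30 and rho 0.41, and with the 6 group means removed r was 0.04 and rho 0.07. Batches were not separated for these values, since batch A holds 1 control in each region.

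**Figure D4:**
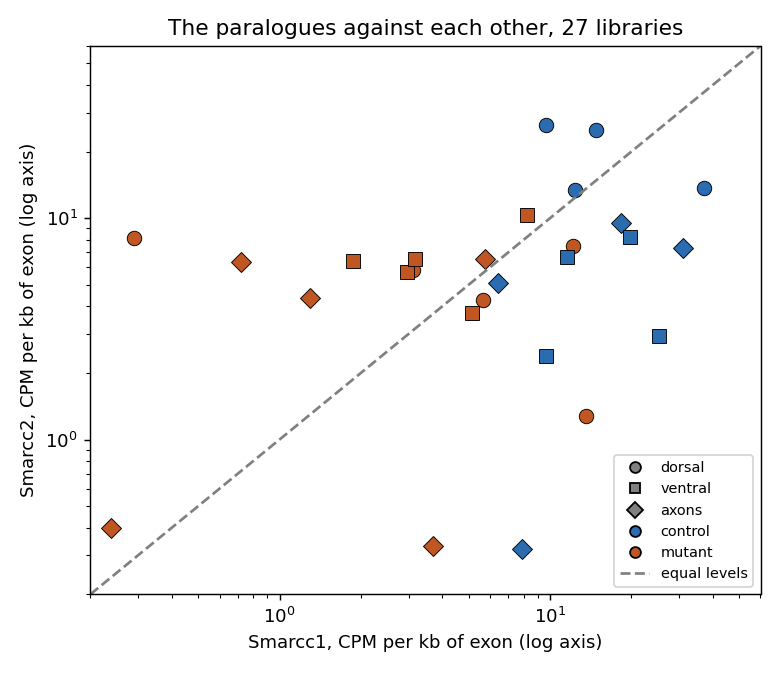
Smarcc1 (horizontal) against Smarcc2 (vertical) in the 27 libraries, both in CPM per kb of exon on log axes; circles are dorsal, squares ventral and diamonds axon libraries, blue is control and orange mutant, and the dashed line marks equal levels. Of the mutant libraries 10 of 15 lie above the line, of the controls 3 of 12, all dorsal.

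The genes whose log2(CPM + 1) pattern over the 27 libraries was most like that of Smarcc1 were Rcc1 (r 0.72), which encodes a chromatin-bound exchange factor for Ran, the NAD kinase gene Nadk (r 0.70), the nuclear pore gene Nup54 (r 0.68), the mitotic kinase gene Mastl (r 0.65) and Mbip (r 0.65). Those most like Smarcc2 were Ubn2 (r 0.78), which encodes a partner of a histone chaperone, the histone methyltransferase gene Kmt2c (r 0.77), the zinc-finger gene Zc3h4 (r 0.77), Irf2bp2 (r 0.76), which encodes a transcriptional co-regulator, and Man2b1 (r 0.76), which encodes a lysosomal mannosidase. The lists hold 5 genes each from the 9346 genes of at least 10 CPM with a proper symbol, and have 0 genes in common. Smarcc2 came 1278th in likeness to Smarcc1, with 13.7% of the genes more alike, and Smarcc1 came 2129th in likeness to Smarcc2. Among all these genes the median r was 0.06 with Smarcc1 and 0.12 with Smarcc2. With the 6 group means removed, r was 0.54 to 0.59 for the genes like Smarcc1 and 0.71 to 0.84 for those like Smarcc2. These r values are descriptions, since the libraries share embryos, and the genes like Smarcc2 were long, with a median of 9.15 kb of exon against 4.80 kb over all genes compared.

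Genes beside the members on the chromosomes were compared in the same fits. Around Smarcc1 these were Dhx30 and Map4, a microtubule-binding protein gene, at lower coordinates, and Cspg5, a neural proteoglycan gene, and Elp6, a subunit gene of the Elongator complex, at higher ones. Dhx30, which overlaps the first exon bases of Smarcc1, was at 98.4 ± 34.2 CPM in ventral controls (SD, n = 4) and 87.1 ± 27.8 CPM in ventral mutants (SD, n = 5), and at 33.4 ± 49.9 CPM (SD, n = 4) and 72.1 ± 55.7 CPM (SD, n = 5) in the axons. In the dorsal OS it was at 78.7 ± 60.2 CPM (controls, SD, n = 4) and 167 ± 54.2 CPM (mutants, SD, n = 5). Cspg5 had dorsal means of 78.4 CPM (controls, n = 4) and 21.1 CPM (mutants, n = 5) and an edgeR log2 fold change of -1.81 ± 0.99 (SE) there, with an adjusted p of 0.938. It was at 50.5 ± 19.3 and 14.1 ± 14.1 CPM in the ventral OS and 14.6 ± 20.9 and 40.6 ± 57.4 CPM in the axons (controls and mutants, SD, n = 4 and 5), so its mean was lower in the mutants in both OS pieces and higher in the axons, with overlapping ranges throughout. Around Smarcc2 they were Rnf41, Nabp2, the myosin light chain gene Myl6, whose annotated end lies 378 bases beyond that of Smarcc2, and Esyt1. Myl6 was at 646 ± 111 CPM in dorsal controls (SD, n = 4) and 688 ± 109 CPM in dorsal mutants (SD, n = 5), and Rnf41 at 33.4 ± 10.4 CPM (SD, n = 4) and 44.3 ± 38.6 CPM (SD, n = 5). Esyt1 was at 77.6 ± 104 CPM in dorsal controls (SD, n = 4) and 9.82 ± 12.2 CPM in dorsal mutants (SD, n = 5), with an adjusted p of 1.0 from edgeR. None of the 8 neighbours was called by edgeR in any region or had groups that did not overlap, and at an unadjusted p under 0.05 the count was 0 as well. Of all genes tested, 2.68% in the dorsal OS, 1.91% in the ventral OS and 2.68% in the axons were lower at that p.

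The other subunits of the complex were taken from a list of 28 SWI/SNF genes, of which 26 were tested in each region. None was called by edgeR in any region, and none by DESeq2 or limma voom. At an unadjusted edgeR p under 0.05 the list held 1 lower gene in the dorsal OS, where 2.68% of all genes were lower at that p. It held 0 genes in the ventral OS, where 1.91% of all genes were lower, and 1 higher gene in the axons, where 0.861% of all genes were higher. Brd9, a bromodomain subunit of the non-canonical complex, was at 159 ± 72.0 CPM in dorsal controls (SD, n = 4) and 73.4 ± 21.5 CPM in dorsal mutants (SD, n = 5), with an adjusted p of 0.918 from edgeR. Smarca2, one of the alternative ATPases, was at 81.8 ± 46.5 CPM in axon controls (SD, n = 4) and 174 ± 75.2 CPM in axon mutants (SD, n = 5), with an adjusted p of 0.880 from edgeR. In the ventral OS its mean was lower in the mutants, at 123 ± 47.0 CPM (controls, SD, n = 4) against 76.9 ± 34.2 CPM (mutants, SD, n = 5), with an adjusted p of 0.999 from edgeR. Bcl11b, a transcription factor and subunit gene, was at 67.2 ± 124 CPM in ventral controls (SD, n = 4) and 1.68 ± 2.66 CPM in ventral mutants (SD, n = 5), with the same adjusted p from edgeR. Bicral, a subunit gene of the non-canonical complex, was at 1.10 ± 2.13 CPM in axon controls (SD, n = 4) and had 0 counts in all 5 axon mutants (edgeR, adjusted p 0.880). Smarca4, the other ATPase, was at 253 ± 123 and 242 ± 81.2 CPM in the dorsal OS, 261 ± 53.1 and 235 ± 78.2 CPM in the ventral OS and 267 ± 19.5 and 225 ± 131 CPM in the axons (controls and mutants, SD, n = 4 and 5). The core subunit gene Smarcb1 had an edgeR log2 fold change of -0.83 ± 0.41 (SE) in the dorsal OS, with an adjusted p of 0.918. The median log2 fold change of the list was -0.12 in the dorsal OS, 0.00 in the ventral OS and 0.18 in the axons, beside -0.04, -0.08 and -0.29 over all genes tested.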

How the data were processed

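RNA was measured in 27 LCM Geo-seq libraries (single-end reads of PCR-amplified cDNA). The authors deposited raw counts per gene, made with Seq2Science at default settings (STAR, mm10, HTSeq), with versions, annotation release and strand setting not given in the sources used here, and Salmon TPM values were not used here. Groups, batches and replicate numbers came from the labels. Of 55487 identifiers, 55141 matched GENCODE M21 without their version, and the rest held 0.0148% of the counts. The members and gene lists were chosen with earlier results of these data known.

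Genes that exceeded 10 counts in 3 or more libraries were tested with edgeR 4.0.16 in R 4.3.3 (quasi-likelihood F-test, TMM, robust, legacy setting). Genotypes were compared within a region with batch as a term, and regions and the region by genotype interaction with the embryo as a block. Titles tie the 3 pieces of an embryo by number, and deviations of such pieces had a Pearson r across genes of -0.02 to 0.11 (median 0.04, over 0.1 in 2 of 27 pairs), so the block rests on the titles and the capture of all 3 pieces from each embryo. Standard errors are the log2 fold change divided by the root of F. Single values were compared on log2(CPM + 1) by exact permutation tests (126 arrangements of 9 libraries or embryos, 40 when labels stay inside batches), and correlations over the 2880 pairings within genotypes (scipy 1.17.1). DESeq2 1.42.0, limma voom 3.58.1, other scalings, filters, pseudocounts and samples were alternatives. Coding sequences were aligned with Biopython 1.88. No 2 libraries held identical counts. Named genes were both members, the 5 genes most alike to each over the 27 libraries, the nearest 2 tested protein-coding genes on each side, Smarca4, and from the SWI/SNF list those called or with the 2 smallest p-values in a region. The edgeR, limma and permutation steps were tested on simulated data. Replicates are embryos, and p-values weigh a difference or relation against the spread between these samples. Positions are mm10. Depth was 10.9 to 33.98 M counts per library.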

Additional observations from a re-analysis of the deposited data

Results flagged for a closer look

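Before adjustment, the exact permutation test of the genotype effect on Smarcc2 between the dorsal and the ventral OS gave p = 0.0317 (two-sided). It gave 0.05 within batches and 0.179 after Benjamini-Hochberg adjustment over the 9 tests of this kind, so the difference did not pass the adjusted test. Dorsal minus ventral Smarcc2 was 2.03 ± 0.98 on the log2(CPM + 1) scale (controls, SD, n = 4) and -0.42 ± 1.48 (mutants, SD, n = 5). Dorsally 4 of 4 control and 2 of 5 mutant embryos were higher than ventrally, and the ranges of the genotypes overlapped. The exact permutation p was 0.0536 to 0.0714 without any 1 of 7 of the 9 embryos, and the edgeR test of the same difference gave an adjusted p of 1.0.

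For the log2 ratio of Smarcc2 over Smarcc1, the genotype effect in the dorsal OS against that in the axons gave p = 0.0397 in the exact permutation test (two-sided), 0.025 within batches and 0.179 after the same adjustment, which it did not pass. Dorsal minus axon ratio was 2.04 ± 1.87 (controls, SD, n = 4) and -0.33 ± 1.36 (mutants, SD, n = 5), with overlapping ranges. The ratio was higher dorsally in 4 of 4 control and 2 of 5 mutant embryos. Without control 1, whose axon library held 1.78 CPM of Smarcc2, the difference fell from -2.37 to -1.46 and the exact permutation p was 0.125. Mutant 3 was the one embryo without which the exact permutation p stayed under 0.05, at 0.0286, and the p without any of the other 8 was 0.0536 to 0.125.

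A gap test searched 18 sets of values for a library far from the others, and flagged 0. The sets were Smarcc1, Smarcc2 and their log2 ratio in each of the 6 groups of libraries. With 4 or 5 values in a set, and CPM of the genes not on a log scale, it can hardly flag a very low library. Dorsal mutant 3 (2.26 CPM of Smarcc1) and axon control 1 (1.78 CPM of Smarcc2) were not flagged.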

How the results depend on the processing

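For 54 results, 610 recomputed values were unchanged, 46 turned direction, 19 lost and 6 gained the threshold. Unchanged values kept their direction and their side of the threshold. Those 610 also take in the counts of SWI/SNF genes called in each region, which have no direction and stayed at 0 in every setting. DESeq2 called Smarcc1 in ventral mutants (adjusted p 1.77e-05) and Smarcc2 in dorsal against ventral controls (adjusted p 0.0286), and the cause was not tested.

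The edgeR effect on Smarcc2 in the axons turned negative with limma voom (adjusted p 0.915), without the batch term (1.0), in batch B alone (0.960), in a fit of all 27 libraries (1.0) and with the newer edgeR method, chosen after seeing the data (0.999). For Smarcc1 in dorsal against ventral controls, near 0 at first, the sign turned without the replicate block (adjusted p 1.0), with DESeq2 (0.999), RLE size factors (1.0), no filter (1.0) and the newer method (0.998). In ventral against axon controls it turned without the replicate block for Smarcc2 (1.0) and Smarcc1 (1.0), and with the newer method for Smarcc2 (0.960). A pseudocount of 0.1 turned the dorsal log ratio (exact permutation p 1.0). With the replicate block and batch, the edgeR adjusted p of both genes was 1.0 in every region and no call changed. An r over 0.1 was reached by 0 of 12 same-numbered pairs of genotypes, and by only 2 of 27 pairs of pieces from 1 embryo. This measure therefore cannot show whether the numbers pair the genotypes.

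Leaving out 1 library or embryo at a time gave the following lowest and highest p-values where a direction or a side of the threshold changed. The edgeR adjusted p was 0.999 to 1.0 for Smarcc2 in axon mutants, 0.970 to 1.0 for Smarcc1 in dorsal against ventral controls, 1.0 throughout for Smarcc1 in dorsal against axon controls, 0.834 to 1.0 for Smarcc1 and 0.980 to 1.0 for Smarcc2 in ventral against axon controls, and 0.901 to 1.0 for Smarcc1 and 0.996 to 1.0 for Smarcc2 in dorsal against ventral mutants. The exact permutation p was 0.0286 to 0.0536 for the embryo mean of Smarcc1, 0.0286 to 0.268 for the log ratio in the axons and also in the embryo means, and 0.4 to 0.982 for the dorsal log ratio. For differences of the genotype effect it was 0.0286 to 0.0714 for Smarcc2, dorsal minus ventral, 0.229 to 1.0 for Smarcc1, dorsal minus ventral, and for the log ratio 0.0286 to 0.286 dorsal minus ventral, 0.0286 to 0.125 dorsal minus axons and 0.457 to 1.0 ventral minus axons. For the relation of the paralogues it was 0.293 to 0.961 (Pearson) and 0.111 to 0.983 (Spearman) in the ventral OS and 0.0486 to 0.812 (Spearman) in the axons. With 8 libraries or embryos left, fewer splits remain, but a p under 0.05 can still be reached. For Smarcc2 in the dorsal OS the exact permutation p was 0.0179 to 0.0357 with any 1 library left out.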
